A study of Mus musculus with 42 samples.

Results

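The genes described here are mouse odorant receptor (OR) genes of the 3 named clusters on chromosome 11. The rule takes them by name, as the symbols from Olfr311 to Olfr332, Olfr377 to Olfr412 and Olfr1378 to Olfr1396, without Olfr330, Olfr1395 and pseudogene names. The rule found 55 of the 1088 intact ORs listed, and 54 of 1087 in all 9 deposited tables; Olfr329 was listed in the 8 odor tables and was not used in the dorsal and ventral comparison.

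The study measured which ORs are found in ribosomes of recently active olfactory sensory neurons, by immunoprecipitating phosphorylated ribosomal protein S6 (pS6) from olfactory tissue and sequencing the attached RNA. Mice of both sexes (C57BL/6 in the labels, C57BL/6J in the study's methods), aged p20 to p22, were kept without odor for 1 h and then exposed for 1 h to blotting paper with 10 µl of acetophenone (ACT) or of the fox odor component TMT, at volume concentrations of 0.01%, 0.1%, 1% and 100%, or to paper without odorant, with 3 libraries per group and the mice of one replicate drawn from one litter and one sex. A set of 3 no odor libraries served as control for both the 0.01% and the 0.1% group of an odorant, and another set of 3 for its 1% and 100% groups, so such comparisons are not independent of each other. A further 3 dorsal and 3 ventral libraries hold total RNA of the dissected dorsal or ventral olfactory epithelium. For these mice the study's methods give the same strain and age and both sexes, and describe no odor exposure. The labels name no mutant allele or transgene in any group. The tables list ORs only, so defining markers of olfactory neurons or other cells could not be examined.

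Odorant receptors are G protein-coupled receptors in the cilia of olfactory sensory neurons. A mature neuron uses one receptor gene, from one allele, and neurons with the same receptor lie in a limited zone along the dorsal to ventral axis of the epithelium. When an odorant activates a neuron, S6 in its ribosomes becomes phosphorylated, so receptor RNA precipitated with pS6 rises for the receptors of activated neurons. The 3 chromosome 11 clusters hold receptors of the large tetrapod type (class II), and no ligand is assigned to any of them here.

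The members formed 3 groups along chromosome 11 in the GENCODE M21 annotation of GRCm38. The Olfr1378 cluster held 17 members at chr11:49109982-50973113, of which 16 lie on the plus strand; Olfr1378 itself stood 1401 kb from the next member. The Olfr311 cluster held 17 members, 16 of them placed, at chr11:58487950-58844111. The Olfr378 cluster held 21 members at chr11:73424609-74366218, with 7 on the plus and 14 on the minus strand. Another 19 intact ORs outside the naming rule lie inside or within 1 Mb of these clusters. Olfr330 and Olfr1395, the names the rule leaves out, are among these. Both had counts in every library, and both were higher at 1% TMT, by 1.99 and 2.43 on the log2 scale.

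Coding sequences were most alike within the Olfr1378 cluster, where the median identity of its 136 pairs was 76.7% (54.7 to 98.0%). The median was 62.6% over 210 pairs of the Olfr378 cluster and 56.5% over 120 pairs of the Olfr311 cluster. Between clusters the medians were 55.9 to 56.6% and no pair was over 63.9%. The Olfr311 cluster mixes near copies, such as Olfr318 and Olfr320 at 96.2%, with members such as Olfr324 that have no close relative among the members. Several neighbours were near copies, among them Olfr1380 and Olfr1381 at 98.0% and Olfr1392 and Olfr1393 at 95.7%. Reads that fit both genes were divided between them in the deposited counts, so the values of these pairs are uncertain to that extent. The first 120 coding bases are printed for pairs in which 1 member was called at 100% TMT and its closest relative was not. Olfr381 was called higher and Olfr1392 lower. The stretches show how alike the pairs are, with the bases that differ between the pair in capitals.

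Olfr381: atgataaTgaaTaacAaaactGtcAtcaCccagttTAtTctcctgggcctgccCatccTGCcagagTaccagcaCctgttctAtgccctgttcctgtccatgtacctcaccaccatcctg

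Olfr380: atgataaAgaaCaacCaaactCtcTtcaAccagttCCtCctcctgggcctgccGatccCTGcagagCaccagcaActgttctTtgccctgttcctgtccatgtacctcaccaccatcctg

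Olfr1392: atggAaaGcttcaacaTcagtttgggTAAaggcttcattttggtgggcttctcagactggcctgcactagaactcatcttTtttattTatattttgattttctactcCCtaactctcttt

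Olfr1393: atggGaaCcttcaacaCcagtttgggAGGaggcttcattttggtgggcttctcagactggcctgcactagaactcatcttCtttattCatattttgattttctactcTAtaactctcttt

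Olfr381 and Olfr380 differed at 81 of 933 coding bases, 16 of them in the printed stretch. Olfr1392 and Olfr1393 differed at 40 of 933, 10 of them in the stretch. Of the 50-base stretches of the annotated transcripts, 24.7% of those of Olfr1392 and 29.8% of those of Olfr1393 occurred in another Olfr transcript, against 3.15% for Olfr381 and 2.04% for Olfr390. Olfr315 and Olfr397 shared none. Olfr325 shared 29.6%, and 22.8% were shared with Olfr330, one of the 2 names the rule leaves out.

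The 250 bases before the annotated gene start are printed for the members that the odor results turn on, from the RefSeq GRCm38.p6 genome. They are given 5′ to 3′ on the strand of the gene, and capitals mark TAATTA (a homeodomain-type motif) and TATAAA.

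Olfr325 (plus strand, chr11:58577480-58577729): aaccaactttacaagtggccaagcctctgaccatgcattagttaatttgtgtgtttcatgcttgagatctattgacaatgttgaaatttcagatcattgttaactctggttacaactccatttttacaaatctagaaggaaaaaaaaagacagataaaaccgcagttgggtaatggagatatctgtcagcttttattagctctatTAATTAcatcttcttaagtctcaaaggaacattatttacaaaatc

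Olfr315 (plus strand, chr11:58772938-58773187): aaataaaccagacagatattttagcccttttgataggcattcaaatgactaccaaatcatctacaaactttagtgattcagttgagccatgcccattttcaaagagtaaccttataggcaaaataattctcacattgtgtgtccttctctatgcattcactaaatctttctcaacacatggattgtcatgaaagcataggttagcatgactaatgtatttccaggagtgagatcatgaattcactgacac

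Olfr381 (minus strand, chr11:73491604-73491853): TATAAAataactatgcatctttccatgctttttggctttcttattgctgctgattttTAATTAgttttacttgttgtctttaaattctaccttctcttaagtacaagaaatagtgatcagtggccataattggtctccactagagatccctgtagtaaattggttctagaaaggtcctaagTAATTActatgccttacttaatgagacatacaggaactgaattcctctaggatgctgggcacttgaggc

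Olfr390 (plus strand, chr11:73782714-73782963): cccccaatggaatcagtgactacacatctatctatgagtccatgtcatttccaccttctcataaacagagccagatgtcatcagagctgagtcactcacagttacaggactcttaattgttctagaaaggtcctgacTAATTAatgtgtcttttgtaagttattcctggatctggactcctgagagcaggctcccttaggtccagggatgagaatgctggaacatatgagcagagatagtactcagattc

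Olfr397 (plus strand, chr11:73960567-73960816): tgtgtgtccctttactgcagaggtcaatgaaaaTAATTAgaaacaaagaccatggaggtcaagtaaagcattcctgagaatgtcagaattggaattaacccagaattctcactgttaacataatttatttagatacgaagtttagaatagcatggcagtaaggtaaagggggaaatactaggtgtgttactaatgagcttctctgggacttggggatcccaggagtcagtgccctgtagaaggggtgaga

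TAATTA, searched on both strands, occurred in 13 of 54 member windows (24.1%), against 22.8% of the windows of all 1082 placed ORs. CCCNNGGG, the spaced palindrome of Olf/Ebf factors, occurred in 5 (9.26%) against 13.7%, and TATAAA in 6 (11.1%) against 29.7%. In the Olfr378 cluster 8 of 21 windows (38.1%) held TAATTA, and all 8 belonged to the 14 members from Olfr378 to Olfr398. The windows of Olfr381 and Olfr390, picked because both were higher at 100% TMT, were searched for their longest shared stretch. It was the 16 bases gttctagaaaggtcct, which occur in no other of the 1082 windows. A similar stretch, gtcccagaaaggtcct, occurs in the windows of Olfr393 and Olfr394, which were not called at 100% TMT. The genes Olfr381 and Olfr390 start 291 kb apart. These matches describe letters in the windows and show no binding.

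OR counts per library were 37012 to 128805 (median 66805) in the 36 pS6 libraries, and 155319 to 242123 over the 6 libraries of dissected epithelium. The members held 4.46 to 7.53% of the OR counts of a pS6 library. At 100% TMT their share was 4.46 to 5.22%, and in the no odor libraries of that experiment it was 5.97 to 6.49%, without overlap. A share also falls when other ORs rise, and 11.6% of all ORs were called higher at 100% TMT. It is thus no measure of the members alone. Of the 55 members, 44 had a median pS6 count of at least 10, and the other 11 were too sparse for a change to be seen unless it was large.

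One odor library stood apart in the members. In the 0.01% ACT library of litter 1, 107 of 859 ORs (12.5%) lay over 3 times their median in the other 35 pS6 libraries, and 8 of 44 members with a median of at least 10 did so. These were Olfr313 and 7 members of the Olfr378 cluster, namely Olfr380, Olfr381, Olfr390, Olfr392, Olfr393, Olfr394 and Olfr397. Olfr397 read 1017 normalized counts there, against a median of 147 in the others, and Olfr390 read 537 against 106. Within litter 1 the Olfr378 cluster had a median log2 ratio of 1.08 to the no odor library, with 12 of 21 members over 1, while litters 2 and 3 had medians of 0.08 and -0.30. The Olfr1378 cluster did not share this, with a litter 1 median of -0.35. Ratios over 1 were not counted over all ORs, so the 12 have no background beside them. Some of the 12 stand on few counts, such as Olfr385, which went from 0 to 9.26 normalized counts in litter 1. Olfr402 went from 0 to 4.63. The 100% ACT library of litter 3 had a like share of high ORs, 108 of 856 (12.6%), but only Olfr397 among the members. Whether these libraries differ for a technical reason was not tested.

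**Figure D1:**
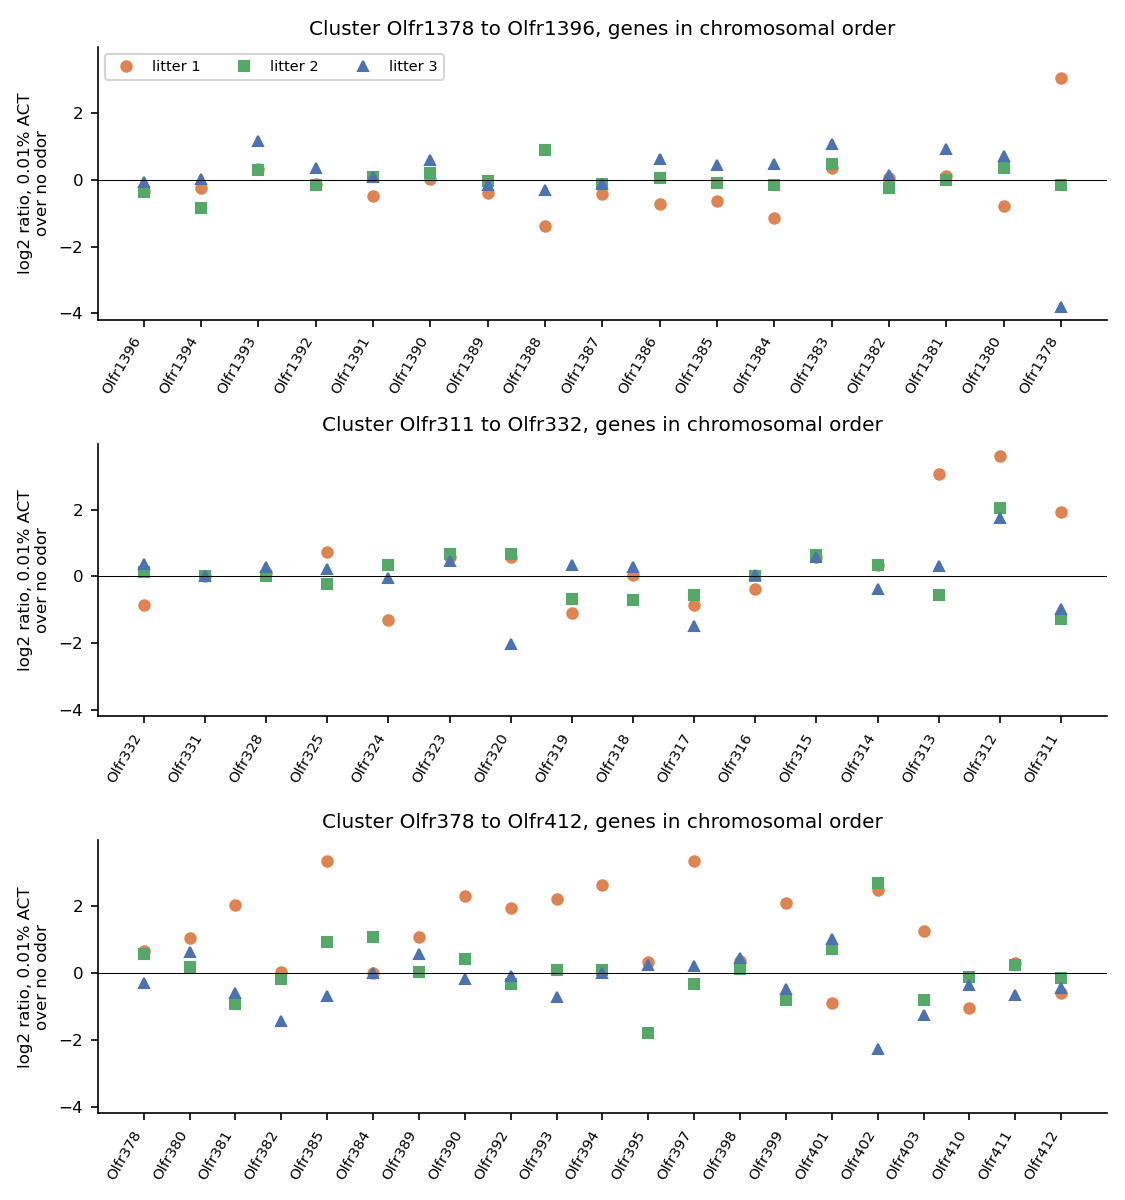
Log2 ratio of the 0.01% ACT to the no odor library of the same litter (y axis) for each placed member in chromosomal order (x axis), 1 panel per cluster, with a point for each litter. In the Olfr378 cluster 12 of 21 litter 1 points lie over 1, some of them on few counts, and the litter medians are 1.08, 0.08 and -0.30. Points over 1 were not counted over all ORs.

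Without odor the members ranged from no reads to among the most abundant ORs. In the 12 no odor pS6 libraries their median level was 218 CPM per kb of transcript (CPM being counts scaled to an equal OR total in every library), against 152 over the 1082 placed ORs. The Olfr1378 cluster had a median of 359, the Olfr311 cluster 197 and the Olfr378 cluster 141 on the same scale. In tissue RNA a low level can come from few neurons of a receptor or from little RNA per neuron, and in pS6 libraries also from low pS6, and these cannot be told apart.

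In the Olfr1378 cluster Olfr1386 was highest per kb, with a level of 1937 to 3340 (median 2340) over the 12 no odor libraries, at the 99th percentile of placed ORs. Olfr1392 followed at 796 to 2842 (median 1317) and Olfr1384 at 635 to 2303 (median 1102), and these neighbours in the order overlap. The lowest was Olfr1390, at 0 to 49 per kb. In the Olfr311 cluster Olfr332 led at 936 to 2148 (median 1318), above every value of Olfr328, at 461 to 827 (median 650). Olfr331 was at 0 in all 12.

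In the Olfr378 cluster Olfr397 was highest, at 190 to 749 per kb (median 473), with Olfr390 at 272 to 543 (median 382) inside that range. The order at the top of this cluster is thus not resolved by these libraries. At its bottom stood Olfr384, which had 0 or 1 count in each no odor library.

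The pS6 libraries were also set against total RNA, as the ratio of the no odor pS6 level to the mean of the dorsal and ventral levels, each in CPM over the ORs. The median ratio was 1.11 over 53 members and 0.769 over 1055 ORs. Dorsal members were lower than ventral ones, with medians of 0.406 over 9 and 1.53 over 25, and over all ORs the medians were 0.484 and 1.11. Olfr1386 had a ratio of 4.11 and Olfr1391 3.97, the highest of the members, while Olfr410 had 0.271 and Olfr395 0.291. Mice, dissection and library type differ between the parts of this ratio, so no test was made.

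Olfr384 went furthest from this pattern. It had 26 to 60 counts in each of the 6 dorsal and ventral libraries, yet 0 to 2 counts in each of the 36 pS6 libraries, 29 of them at 0, and its ratio was 0.00666. Olfr331 had no count in the dorsal and ventral libraries and 3 counts in 1 pS6 library, at 1% ACT.

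**Figure D2:**
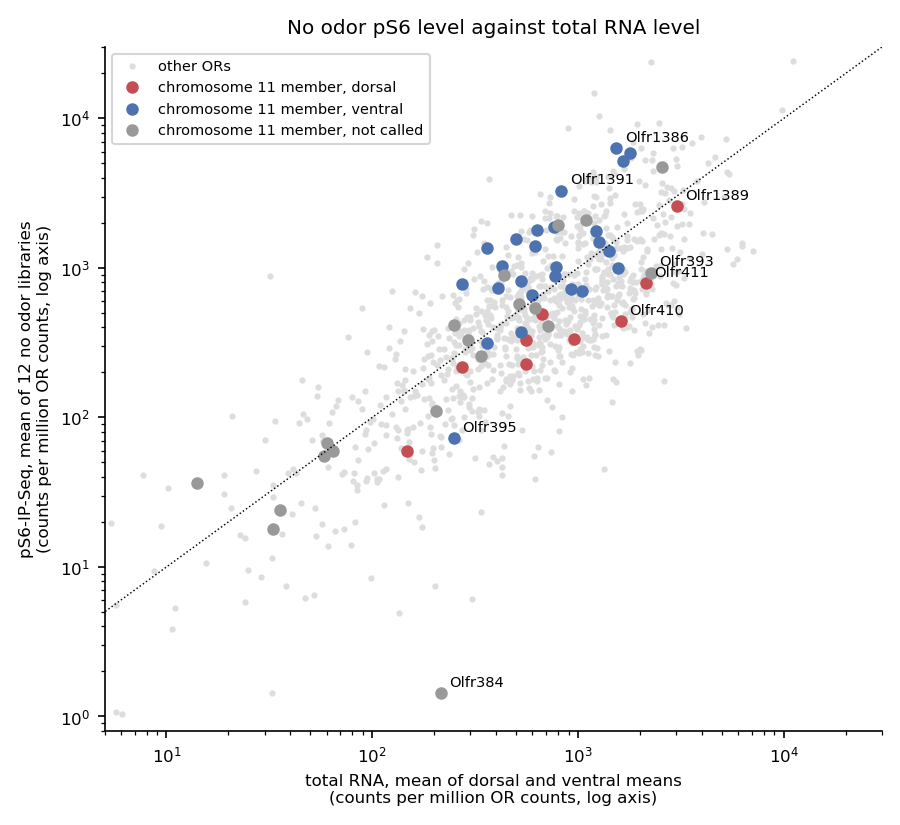
Mean level in the 12 no odor pS6 libraries (y axis) against the mean of the dorsal and ventral total RNA levels (x axis), both in CPM over the ORs on log axes, for members colored by zone call and other ORs in light gray; the dotted line marks equal levels. Ventral members (median ratio 1.53) lie higher than dorsal ones (0.406), and Olfr384 lies far below the line at 0.00666.

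In the comparison of dorsal and ventral epithelium the members leaned to the ventral side. With edgeR's quasi-likelihood test, 9 of 54 were higher in dorsal (16.7%) and 25 higher in ventral libraries (46.3%), where 37.4% and 37.2% of all 1087 ORs were. The ventral count depended on single replicates: without replicate 3 it was 13 members (24.1%) beside 18.5% of all ORs, and without replicate 1 it was 16 (29.6%) beside 18.9%, with 8 dorsal members in each. The median log2 fold change of dorsal over ventral was -1.37 for the members and -0.67 over all ORs. Scaling by total OR counts alone shifted all ORs by -0.60, so directions of members near 0 depend on the scaling. The dorsal library of replicate 2 held more of the ventral members than the other dorsal libraries, and the members' share of counts in dorsal libraries was 2.49 to 3.58%.

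In the Olfr1378 cluster 11 of 17 members were ventral and 1 was dorsal. Olfr1384 read 9.63, 105 and 29.7 normalized counts in the dorsal libraries and 614, 479 and 478 in the ventral ones. These did not overlap, and the log2 fold change was -3.98 ± 0.81 (SE), beside -4.07 for Olfr1382, -3.32 for Olfr1380 and -2.96 for Olfr1392, whose call was lost without replicate 3 (adjusted p 0.0847, edgeR's quasi-likelihood test). The dorsal member was Olfr1389, with 1173, 895 and 1677 in dorsal and 97.2, 168 and 132 in ventral libraries (3.23 ± 0.57). Its neighbour Olfr1388 was not called at 0.07 ± 0.55, and scaling by total counts alone gave it -0.53.

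The strongest ventral values lay in the Olfr311 cluster, which had 7 ventral and 2 dorsal of 16 members. Olfr325 read 0, 10.7 and 0 in dorsal against 178, 157 and 151 in ventral libraries, a log2 fold change of -6.08 ± 1.05. Olfr328 stood at -5.25, Olfr315 at -5.15 and Olfr314 at -5.00. The dorsal members were Olfr317 at 3.35 ± 0.63 and Olfr313 at 2.40 ± 0.60, and the call of Olfr313 was lost without replicate 1 or 3 (adjusted p up to 0.115, edgeR's quasi-likelihood test). Between them lie 3 of the others, of which Olfr316 was not called (-0.58) and Olfr315 and Olfr314 were ventral.

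The Olfr378 cluster was split by position. Of the 14 members from Olfr378 to Olfr398, 7 were ventral, 7 were not called and 0 were dorsal. Of the 7 from Olfr399 to Olfr412, 6 were dorsal and Olfr403 was not called (-1.37 ± 0.60). Olfr402 had the highest value, 4.26 ± 0.71, beside 4.00 for Olfr411, 3.95 for Olfr399 and 3.87 for Olfr410. On the other side Olfr390 stood at -4.05 ± 0.81, Olfr398 at -3.54, Olfr389 at -3.09 and Olfr378 at -2.62. The call of Olfr378 was lost without replicate 2 or 3 (adjusted p up to 0.115, edgeR's quasi-likelihood test) and that of Olfr389 without replicate 3 (0.0501).

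Olfr411 read 948, 665 and 1186 in dorsal and 34.3, 68.1 and 75.9 in ventral libraries, and Olfr390 read 9.63, 79.6 and 12.9 against 424, 330 and 349. The 2 stretches are 62.7 kb apart. The division held for members only: Olfr23, no member, lies in the first stretch and was dorsal (2.19), and Olfr43 and Olfr59 lie in the last and were ventral (-2.66 and -2.05). Over the 3 clusters, 23 of 51 neighbouring pairs of members were both called, 20 of them to the same zone. No such share was taken over all ORs, and the pairs skip other ORs that lie between members. Ventral calls outnumber dorsal ones among the members, so many like pairs would arise without any order along the chromosome.

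**Figure D3:**
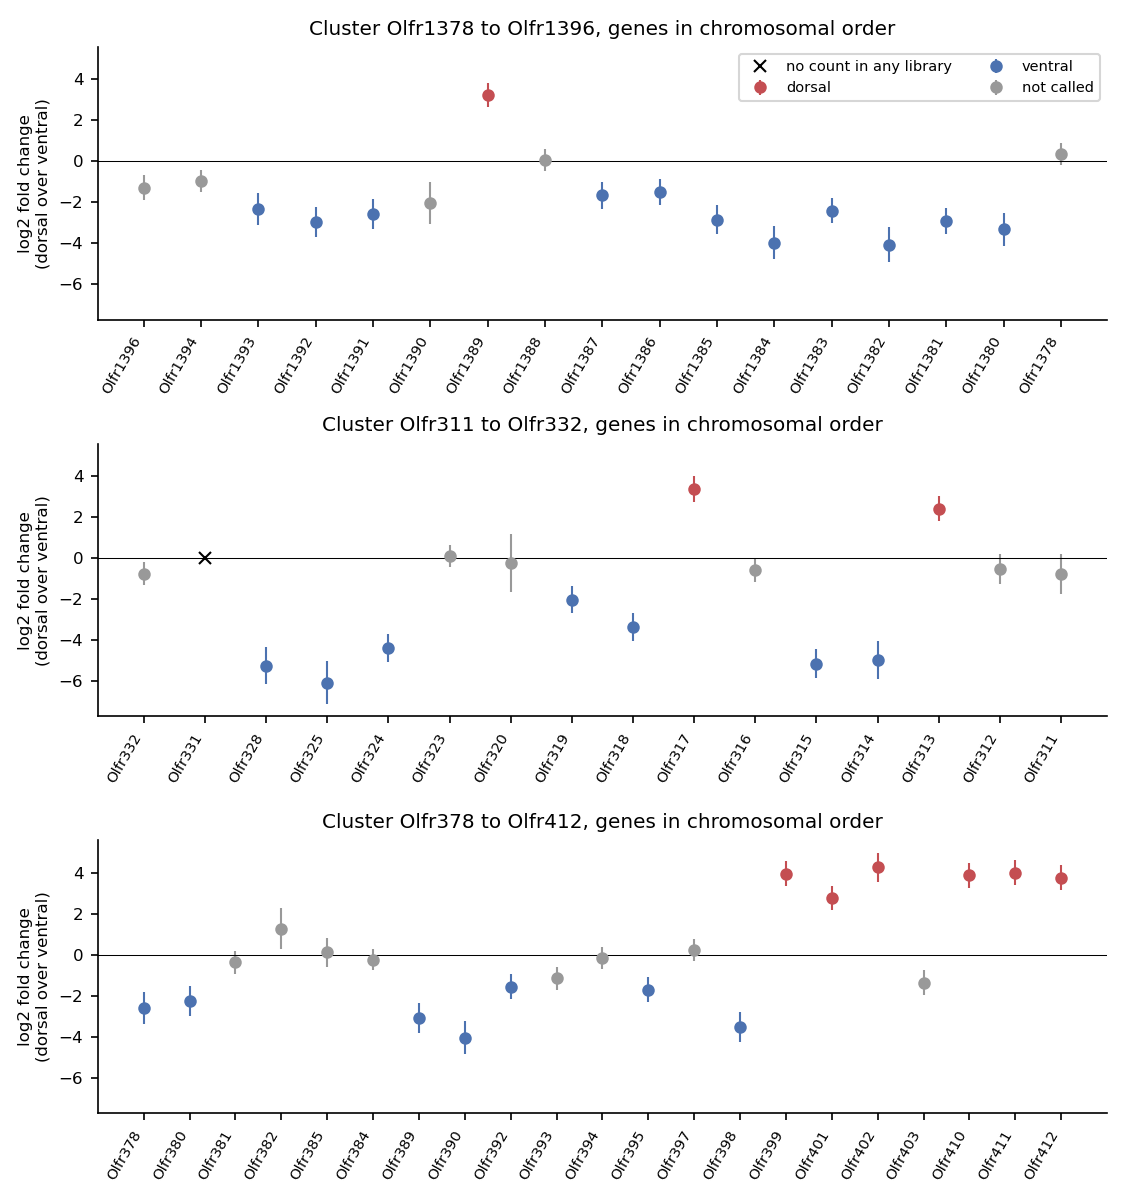
Log2 fold change of dorsal over ventral libraries (y axis, bars are SE) for each placed member in gene order (x axis) in the 3 clusters, colored by call. The last 7 members of the Olfr378 cluster hold 6 dorsal calls and the first 14 hold none.

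ACT moved no member past the threshold at any concentration by edgeR's quasi-likelihood test. At 0.01% ACT 0 of 55 members were called, where 0% of 1088 ORs were, with 2 members at an unadjusted p under 0.05. By DESeq2 0 members were called, and without litter 1, whose library stood apart, 0 were called as well. Over all ORs DESeq2 called 2 at 0.01% ACT and the likelihood ratio test 3. The quasi-likelihood test without litter 1 called 4. At 0.1% ACT 0 members were called against 0.643% of ORs, and 0 by DESeq2. There 0 members and 38 of 1088 ORs had an unadjusted p under 0.05. At 1% ACT 0 members were called against 1.65%, and 0 by DESeq2. There 3 members and 80 of 1088 ORs had an unadjusted p under 0.05. At 100% ACT 0 members were called against 0%, with 1 by DESeq2 and 1 by edgeR's likelihood ratio test. There 3 members and 155 of 1088 ORs had an unadjusted p under 0.05. The study reports enriched ORs at its lowest and highest ACT concentrations. The quasi-likelihood test with its main settings called none at either. A lack of member calls there thus does not show a lack of response. The 0% at 100% ACT belongs to the main settings of the quasi-likelihood test with all 3 litters. It stayed at 0 without scaling, with a low-count filter and in a joint fit. With RLE scaling the test called 10 ORs, and without the litter block 7. Over all ORs DESeq2 called 19 and the likelihood ratio test 43. The quasi-likelihood test without litter 1 called 87, of which 82 were higher (7.54%) and 1 was a member.

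Olfr397 was that member. It read 301, 311.4 and 1022 normalized counts at 100% ACT and 89.2, 82.4 and 100 without odor, so every exposed library lay above every control. The log2 fold change was 2.32 ± 0.40 with an adjusted p of 0.0508, just outside the threshold. Its adjusted p was 2.04e-05 in DESeq2 and 0.026 without the litter block, and it ran from 2.04e-05 to 0.197 over 10 alternative analyses, of which 7 called it. Leaving out litter 3, whose library had the highest value, left it called (adjusted p 0.0233). Olfr397 did not stand out at 1% ACT, with 81.5, 121 and 107 normalized counts against the same controls (0.18 ± 0.28). At 0.01% ACT it read 1017, 118 and 181 against 99.6, 147 and 155, and the 1 high library is the one that stood apart.

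The members nearest a call at the other ACT concentrations moved little or stood on few counts. At 1% ACT Olfr315 read 235, 80.5 and 110 against 105, 66.4 and 65.0 (0.73 ± 0.27, adjusted p 0.245 in edgeR's quasi-likelihood test). Olfr1381 had 0.80 ± 0.31 (adjusted p 0.295), and the groups overlapped for both. At 0.1% ACT Olfr1381 (0.50 ± 0.24) and Olfr1383 (0.68 ± 0.34) were nearest. At 0.01% ACT Olfr312 read 11.1, 8.82 and 7.53 against 0, 1.37 and 1.55 (3.08 ± 1.01, adjusted p 1.0), a difference of a few counts. Olfr317 read lower there, at 23.2, 29.2 and 15.1 against 42.6, 43.8 and 44.1 (-0.98 ± 0.37). At 100% ACT Olfr1388 had -1.18 ± 0.41 (adjusted p 0.21).

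TMT moved no member past the threshold at its lower concentrations. At 0.01% TMT 0 members were called against 0.46% of ORs, and 0 by DESeq2. There 5 members and 56 of 1088 ORs had an unadjusted p under 0.05. The nearest were Olfr1384 (-0.88 ± 0.27, adjusted p 0.235 by edgeR's quasi-likelihood test) and Olfr1392 (-0.74 ± 0.25, adjusted p 0.415). At 0.1% TMT 0 were called against 2.02%, with 5 at an unadjusted p under 0.05 and 0 by DESeq2. These 5 were not set against the count over all ORs. There Olfr397 read 164, 230 and 201 against 139, 198 and 57.6, overlapping, with 0.72 ± 0.24 (adjusted p 0.104). Olfr1384 read 829, 327 and 225 against 724, 650 and 628 (-0.75 ± 0.28, adjusted p 0.255). Without litter 1 both were called, Olfr397 higher and Olfr1384 lower.

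At 1% TMT 3 members rose and none fell. All 3 belong to the Olfr311 cluster, Olfr329 by its number only, since the annotation does not place it. Over all ORs 4.69% were higher and 0.184% lower, so the members' share of higher calls (5.45%) is near that of ORs at large. Their median log2 fold change was 0.01, against -0.05 over all ORs. Scaling by total OR counts alone shifted all ORs by -0.22, and with it only 1 member was called.

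Olfr325 rose most. It read 194, 121 and 114 normalized counts at 1% TMT and 55.2, 65.9 and 29.4 without odor, with no overlap. The log2 fold change was 1.47 ± 0.28 (adjusted p 5.73e-06, edgeR's quasi-likelihood test), and all 10 alternative analyses called it. Olfr330, whose transcript shares 22.8% of the 50-base stretches of Olfr325, was also higher at 1% TMT, by 1.99 ± 0.25. Whether divided reads add to the value of Olfr325 was not tested.

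Olfr315, which shares no 50-base stretch with another OR, read 217, 308 and 158 at 1% TMT and 84.4, 132 and 135 without odor. The groups did not overlap, though the lowest exposed library was close to the highest control (0.91 ± 0.25, adjusted p 0.00595). Olfr329 read 173, 214 and 166 against 105, 93.5 and 104 (0.83 ± 0.25, adjusted p 0.0173), also without overlap. DESeq2 called neither of the 2, nor did the fit without litter 2, and without litter 1 Olfr315 was not called. The annotation has no gene named Olfr329 but lists an Olfr329-ps, a pseudogene name. Whether they are the same gene was not examined. Shared stretches were thus not counted for Olfr329, and whether divided reads add to its value was not tested.

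At 100% TMT 2 members rose and 3 fell. Over all ORs 11.6% were higher and 3.31% lower, while 3.64% of the members were higher and 5.45% lower. The median of the members was -0.12, near the -0.09 of all ORs, and by cluster it was -0.50 for Olfr1378, 0.13 for Olfr311 and -0.11 for Olfr378. The shift from scaling by total OR counts alone was -0.24, and with it 2 members were higher and 8 lower.

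Both members that rose lie in the Olfr378 cluster. Olfr381 read 61.7, 85.7 and 100 normalized counts at 100% TMT against 20.5, 13.8 and 6.93 without odor, with a clear gap between the groups. This was the largest rise of any called member, 2.47 ± 0.42 on the log2 scale (adjusted p 1.01e-07). Olfr390 read 175, 238 and 213 against 69.2, 85.8 and 123, also without overlap (1.15 ± 0.27, adjusted p 0.000369). Both were called in all 10 alternative analyses. Outside TMT, Olfr381 read 65.1 in 1 of 3 libraries at 100% ACT, against 15.4 and 13.8 in the other 2. It also read 58.4 in the 0.01% ACT library of litter 1, which stood apart, and 39.8 in the 1% ACT library of litter 2.

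The members that fell were Olfr1392 and Olfr1389 of the Olfr1378 cluster and Olfr411 of the Olfr378 cluster. Olfr1392 read 129, 136 and 175 against 240, 192 and 467 (-0.99 ± 0.27, adjusted p 0.00316). Olfr411 read 42.6, 31.0 and 37.7 against 74.6, 98.1 and 53.7 (-1.03 ± 0.34, adjusted p 0.0218). Olfr1389 read 132, 118 and 75.4 against 200, 179 and 151 (-0.77 ± 0.27, adjusted p 0.0332). None of these groups overlapped, but the falls were less steady than the rises. The call of Olfr1392 was lost without litter 1 or 3, that of Olfr411 without litter 1 or 2 and in DESeq2. Olfr1389 was not called in DESeq2, without the litter block or with any litter left out. In the no odor libraries Olfr1392 itself varied from 192 to 763 normalized counts.

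**Figure D4:**
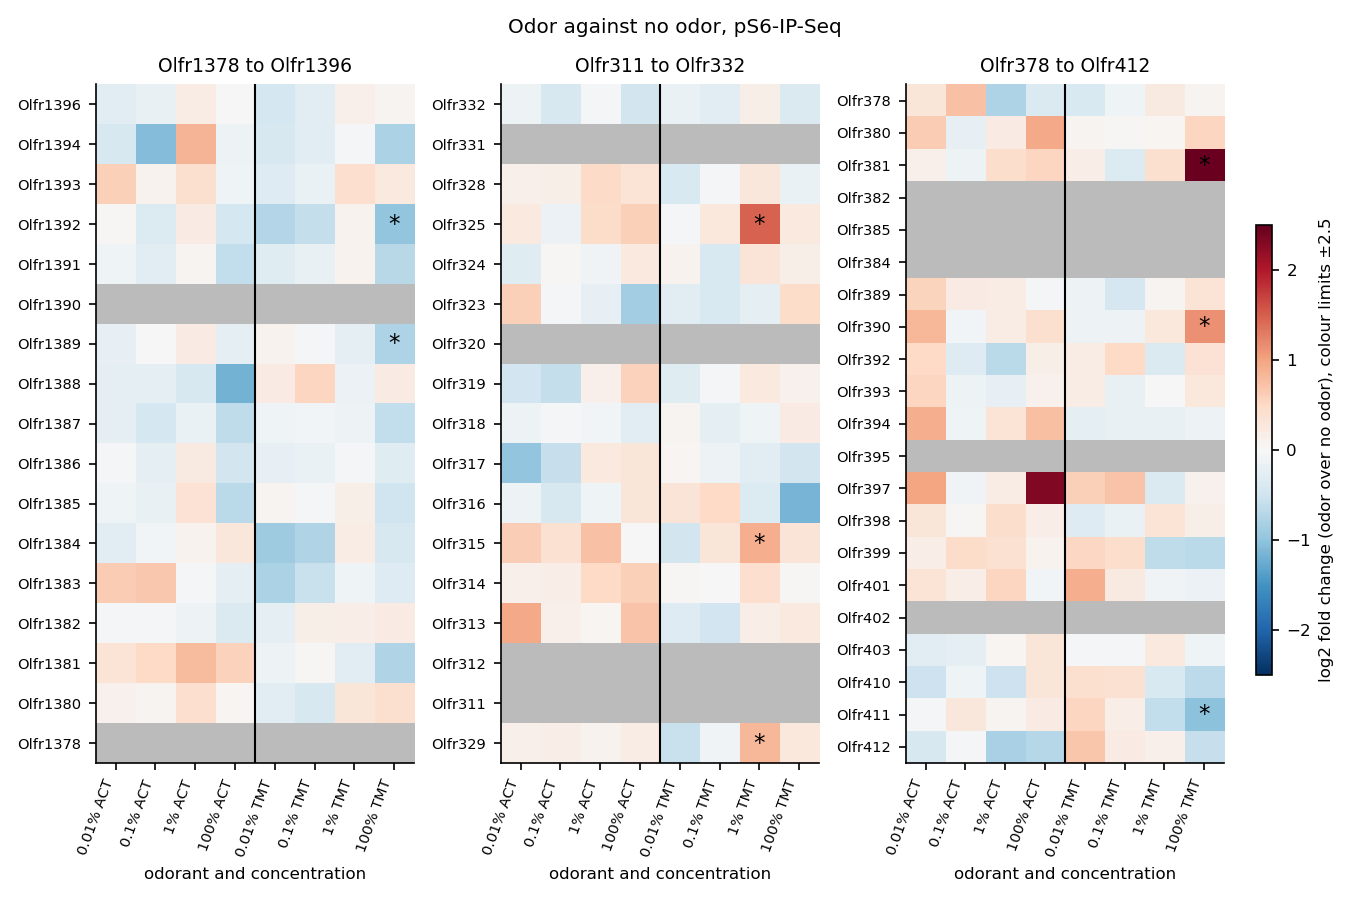
Log2 fold change against no odor (color scale) for each member (rows, by cluster in gene order, Olfr329 last) at each odorant and concentration (columns), with asterisks at calls and gray for the 11 members with a median pS6 count under 10. The 8 asterisks fall at 1% TMT (3) and 100% TMT (5).

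**Figure D5:**
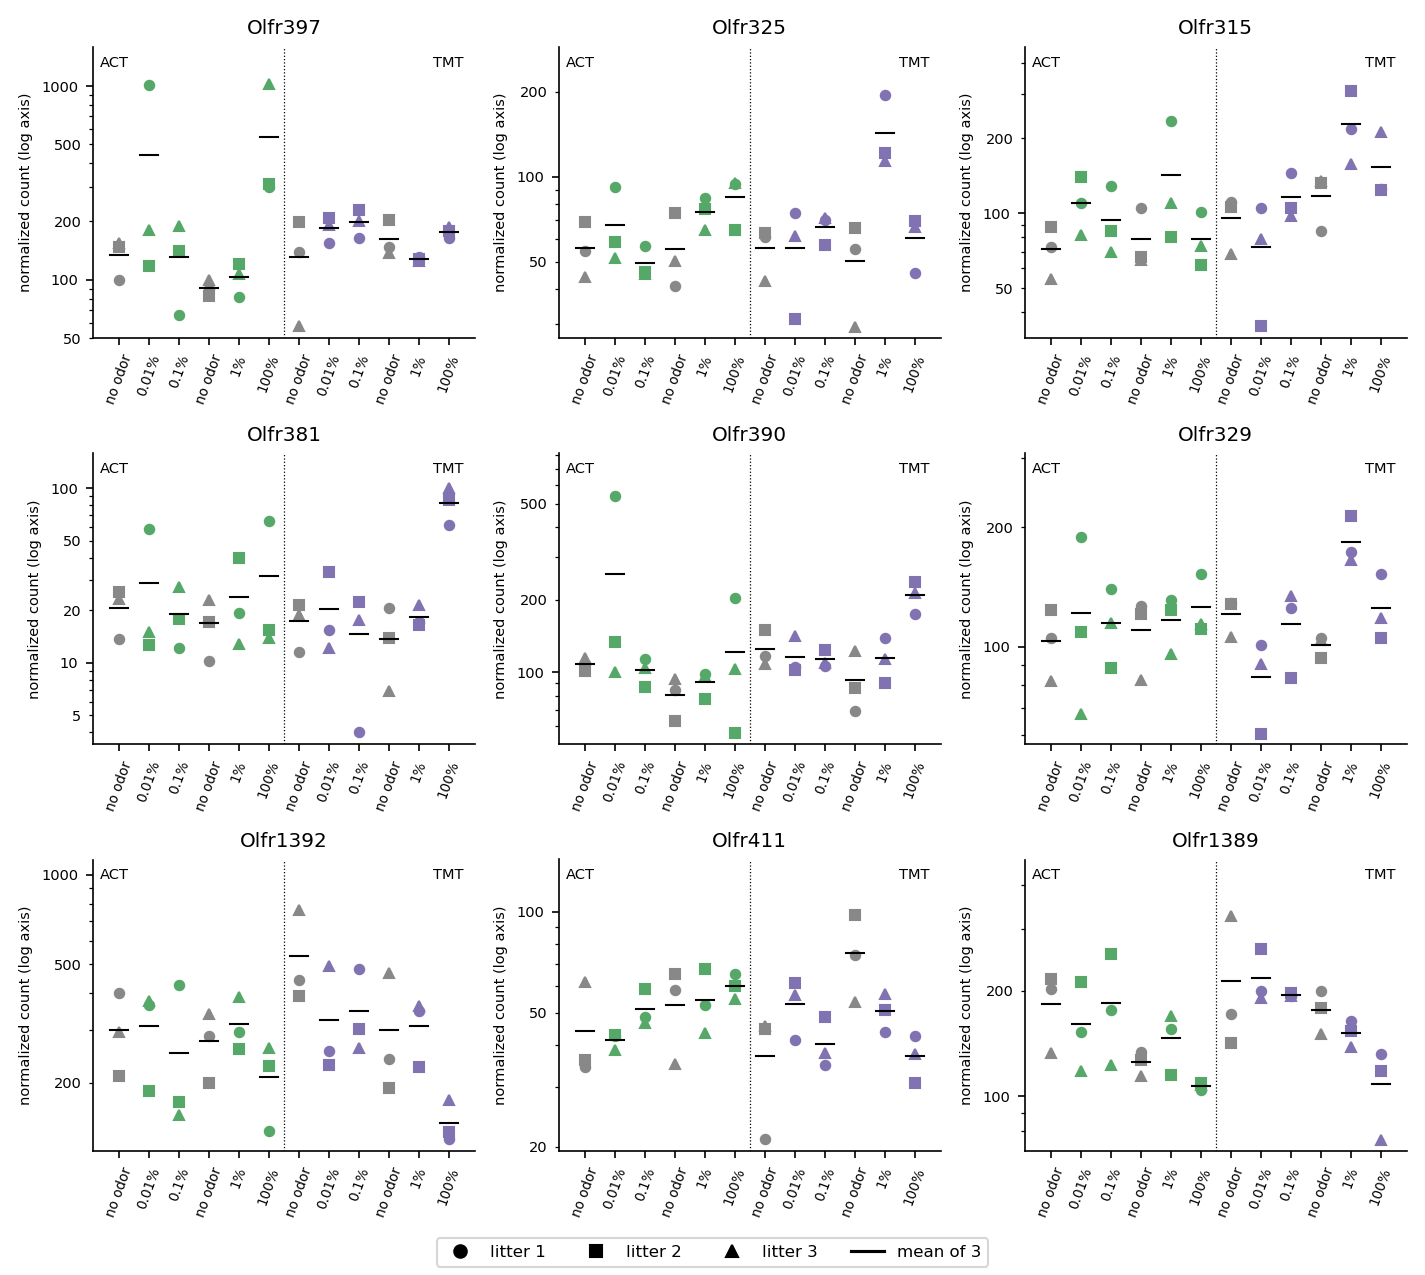
Normalized counts (y axis, log scale) of the 8 members called against no odor and Olfr397 in each of the 36 pS6 libraries, by odorant and concentration (x axis), with a point shape per litter and bars at the means of 3. Olfr381 reads 61.7 to 100 at 100% TMT against 6.93 to 20.5 in its no odor libraries, and Olfr325 reads 114 to 194 at 1% TMT.

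The concentrations were then compared directly within each odorant by edgeR. Between 100% and 1% TMT 2 members were higher (6.34% of ORs) and 2 lower (1.75%) at 100%. Olfr381 was higher by 2.18 ± 0.42 (adjusted p 5.96e-05), with 17.1, 16.5 and 21.3 at 1% against the 61.7, 85.7 and 100 given above. Olfr390 was higher by 0.90 ± 0.25 (adjusted p 0.00873). Olfr325 was lower at 100% by -1.18 ± 0.30 (adjusted p 0.00413). It read 45.5, 69.4 and 66.3 there, against 55.2, 65.9 and 29.4 without odor, so that these groups overlapped. Olfr330, no member, shares part of its transcript sequence with Olfr325 and was also lower at 100%, by -1.64 ± 0.24. Whether divided reads add to the fall of Olfr325 was not tested. Olfr1392 was lower by -1.05 ± 0.26 (adjusted p 0.00355).

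Olfr325 rose most at 1% TMT and Olfr381 at 100% TMT, and they differed between these concentrations in opposite directions. Both were picked by rises in these same libraries, so the opposite directions follow largely from that choice. The call of Olfr325 was lost without litter 1 (adjusted p up to 0.248), and that of Olfr390 without litter 2 or 3 (up to 0.21). The call of Olfr1392 was lost without litter 1 and without the litter block. Olfr381 was called in all 7 alternatives run.

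Other steps of concentration gave no call. Between 100% and 1% ACT 0 members were called (0% of ORs), with 6 at an unadjusted p under 0.05 and 1 by DESeq2, Olfr397, at 2.22 ± 0.69 in edgeR (adjusted p 0.212). Between 0.1% and 0.01% ACT 0 were called (0% of ORs), with 4 at an unadjusted p under 0.05 and 0 by DESeq2. Between 0.1% and 0.01% TMT 0 were called (0.46% of ORs), with 2 at an unadjusted p under 0.05 and 0 by DESeq2. The unadjusted counts of these steps were not set against all ORs, so nothing is read from them.

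The responses to ACT and TMT were compared at matched concentrations, as the difference of the 2 log2 fold changes. At 0.01% 0 members were called (0% of ORs), with 3 at an unadjusted p under 0.05 and 0 by DESeq2. At 0.1% 0 were called (1.47%), with 2 at an unadjusted p under 0.05 and 0 by DESeq2. At 1% 0 were called (0.184%), with 3 at an unadjusted p under 0.05 and 0 by DESeq2. The rises of Olfr325 and Olfr315 at 1% TMT were thus not shown to differ from their values at 1% ACT. These unadjusted counts were not set against all ORs, so nothing is read from them. At 100% 1 member was called higher with ACT, where 0.0919% of ORs were higher and 0.0919% lower.

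This was Olfr397, whose response to ACT exceeded that to TMT by 2.22 ± 0.47 (adjusted p 0.0481 by edgeR's quasi-likelihood test). At 100% TMT it read 165, 179 and 188 against 147, 204 and 137, with no difference beyond the spread (0.10 ± 0.27). The call was lost without litter 2 (adjusted p 0.774), without litter 3 (0.236), without the litter block (0.119) and after filtering low counts (0.0969). Litters of the ACT and TMT experiments were treated as different litters.

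The closest relatives among the members were looked at for those that changed, in the same comparison. For Olfr325 no such value could be had, since Olfr331, the closest member, had no counts, and Olfr330, no member, was higher at 1% TMT as given above. Olfr380, at 91.3% coding identity to Olfr381, had 0.53 ± 0.36 at 100% TMT (adjusted p 0.401), beside 2.47 for Olfr381. Its libraries read 66.1, 60.6 and 58.5 against 26.0, 47.5 and 55.4. Olfr1393, at 95.7% to Olfr1392, had 0.25 ± 0.36 where Olfr1392 had -0.99. Olfr314, the closest to Olfr315 at 67.7%, had 0.42 ± 0.32 at 1% TMT beside 0.91. Olfr410, at 83.8% to Olfr411, had -0.65 ± 0.49 beside -1.03, and Olfr390, the closest to Olfr397 at 78.9%, had 0.40 ± 0.38 at 100% ACT beside 2.32. The differences between relatives were not tested.

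Zone and odor calls can be read side by side for the same members. The 2 placed members that rose at 1% TMT, Olfr325 and Olfr315, were ventral, as was Olfr390 of the 2 that rose at 100% TMT, while Olfr381 was not called (38.5, 80.8 and 43.9 in dorsal against 64.8, 68.9 and 68.2 in ventral libraries). Of those that fell, Olfr1392 was ventral and Olfr1389 and Olfr411 were dorsal. Olfr397 was in neither zone by the test, at 168, 166 and 143 against 112, 141 and 164.

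Of the other 19 intact ORs near the clusters, more were called higher with TMT by count. They include Olfr330 and Olfr1395, which the rule leaves out by name and which were both higher at 1% TMT. At 1% TMT 6 of the 19 were higher, with Olfr376 (2.65) and Olfr1395 (2.43) the largest, where 4.69% of all ORs were. At 100% TMT 6 were higher, again led by Olfr376 (2.78), where 11.6% of all ORs were. In the zone comparison 10 of the 19 were dorsal, where 37.4% of all ORs were. Olfr56, Olfr330, Olfr224, Olfr1, Olfr43 and Olfr59 were ventral, where 37.2% of all ORs were. No test compares these 19 with the members. Leaving Olfr330 and Olfr1395 out of the members adds to the difference in count at 1% TMT. The name ranges also leave out Olfr56, Olfr30 and Olfr376, higher at 1% TMT. They leave out Olfr30, Olfr20, Olfr376 and Olfr1 as well, higher at 100% TMT. The difference in count thus follows largely from which names were taken as members.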

How the data were processed

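The study immunoprecipitated pS6 ribosomes, made libraries with an unstranded low-input kit and, with STAR and RSEM, estimated expected counts per OR on transcripts that include the noncoding ends; the authors deposited these as whole-number counts, 1 table of ORs for each of the 8 odor comparisons and 1 for dorsal against ventral total RNA. RSEM divides reads shared by similar genes. The authors' fold changes, average abundances and p-values in the same tables were not used, and no column belonged to another sample. Samples were grouped by their odor and tissue labels. The label of one 0.1% TMT library (replicate 1) names a file of another concentration, and its odor label was followed.

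Counts were tested per table with edgeR 4.0.16 (R 4.3.3): TMM factors over the ORs, no count filter, litter as a block, a robust quasi-likelihood fit, and Benjamini-Hochberg adjustment over all ORs. A call is an adjusted p under 0.05. Direct comparisons of concentrations used the 18 libraries of an odorant, and ACT against TMT used 12. SE is the log2 fold change divided by the square root of the F statistic and restates the test. Normalized counts are counts divided by the TMM-scaled library size and brought to a common size of 71215 (pS6) or 190614 (zone) OR counts. The fits were tested on simulated data.

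Alternatives were DESeq2 1.42.0, edgeR's likelihood ratio test, RLE or no scaling, a low-count filter, a joint fit, no block and each replicate left out. The study states that replicates are litters, which gives the pairing of the pS6 libraries; deviations of same-numbered libraries correlated at -0.05 to 0.30, over 0.1 in 16 of 36 pairs. Dorsal and ventral numbers are paired in the study's code, though their deviations correlated at -0.31, -0.43 and -0.03. Depth limits precision: rare members have few counts, and intervals cover the spread of 3 libraries per group.

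Members were placed with GENCODE M21 on GRCm38, and 1082 ORs were placed. The text names members called in any of 17 comparisons, the members with the largest zone changes per cluster and those beside them, the 2 nearest a call where none was called, the extremes of level, and the closest relatives of these. The members and lists were chosen with earlier results of these data known.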

Additional observations from a re-analysis of the deposited data

Results flagged for a closer look

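The rules for a closer look picked out 5 differences between responses, each tested directly in edgeR. Between 100% and 1% TMT the difference in log2 fold change was 2.18 for Olfr381, 0.90 for Olfr390, -1.18 for Olfr325 and -1.05 for Olfr1392. Each was in the same direction in 3 of 3 litters, and the exposed groups did not overlap. At 100% the ACT response of Olfr397 exceeded its TMT response by 2.22. Groups of 3 libraries are too small for a check of single outlying values, so none was made.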

How the results depend on the processing

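The count of members called stayed within 1.5 times of the reported one in 120 of 145 alternative results. At 100% ACT it was 1 in place of 0 with DESeq2, RLE scaling, the likelihood ratio test, or without the litter block, and 1 with each litter left out. At 1% TMT it was 1 with no scaling or DESeq2, and 1 to 3 with a litter left out. At 100% TMT it was 10 with no scaling and 3 with DESeq2, and 2 to 4 with a litter left out. At 0.1% TMT leaving out litters gave 0 to 2, in dorsal against ventral 21 to 37 (lowest without replicate 3), for 100% against 1% ACT 0 to 1 (1 with DESeq2), for 100% against 1% TMT 2 to 4, for ACT minus TMT at 0.1% 0 to 1 and at 100% 0 to 2. ACT minus TMT at 100% gave 0 after the low-count filter.

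Without the replicate block 3 members were called at 1% TMT, 4 at 100% TMT, 3 for 100% against 1% TMT, 35 in dorsal against ventral and 0 for ACT minus TMT at 100%, beside 3, 5, 4, 34 and 1 with it. The dorsal and ventral numbers may not pair the libraries.

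Directions turned for zone values near 0 that were not called: with no scaling Olfr1388 -0.53, Olfr1378 -0.23, Olfr323 -0.51 and Olfr397 -0.38; with each replicate left out Olfr1388 ran from -0.07 to 0.38, Olfr323 from -0.05 to 0.34 and Olfr320 from -1.04 to 1.07; and with DESeq2 or RLE scaling Olfr384 0.01 and Olfr394 0.10. The no-scaling turns follow from the shift of all ORs by -0.60. The causes of the other changes were not tested. Without transcript length Olfr1392 ranked 3 in its cluster. Depth limits the 11 members with a median pS6 count under 10.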
